A study of Mus musculus with 46 samples.

Results

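R6/2 mice carry part of human HTT, with its CAG repeat expanded, as a transgene and are a fast model of Huntington disease. The data described here are RNA-seq profiles of EGFP-positive glial cells sorted from the striatum of R6/2 mice at 2 ages, 6 pools at 6 weeks and 7 pools at 12 weeks, that is 13 of the 46 libraries of the series. They were chosen by their labels alone, and the question they address is how the sorted cells of mutant mice differ between these ages. Wild-type littermates of the same line, 5 pools at 6 weeks and 7 pools at 12 weeks, served to show what the same interval looks like without the transgene.

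All 4 groups carried an EGFP reporter of Pdgfra, the receptor that marks glial progenitors, so what was sorted depended on that reporter. Each pool joined the striata of 3 to 4 mice of a litter with the same genotype, after the subventricular zone had been cut away. The labels give no sex, strain, repeat length or sequencing batch. A difference between ages is therefore a difference between separate sets of mice, and fewer cells of a type in a pool cannot be told apart from less RNA per cell.

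Oligodendrocyte progenitors divide, leave the cell cycle and pass through a committed stage before they make myelin, the lipid-rich sheath of axons. Progenitors make chondroitin sulphate proteoglycans and ion channels, whereas myelinating cells make compact-myelin proteins and large amounts of cholesterol and galactosphingolipids. In the striatum of Huntington mice, white matter changes and interferon and complement transcripts have been described beside the loss of function of neurons.

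The libraries were of like depth, 34943456 to 49166260 expected counts in the R6/2 pools and 33337839 to 48634226 in the wild-type pools, where an expected count is the estimated number of reads that came from a gene. Levels below are CPM, read counts relative to library size, after TMM scaling over the 25 libraries of the line. Y-linked transcripts summed to 1 CPM or less in 1 of 6 R6/2 pools at 6 weeks and in 4 of 7 at 12 weeks, against 1 of 5 and 0 of 7 wild-type pools. The 12-week R6/2 pools with Y-linked transcripts were pools 1, 4 and 7. Mitochondrially encoded transcripts took 0.75 to 2.57% of the counts at 6 weeks and 0.73 to 2.72% at 12 weeks in R6/2. The highest share at each age belonged to R6/2 pool 1 at 6 weeks and pool 7 at 12 weeks, and these pools stood apart from the others on the second principal component (15.6% of the variance). The first component (45.7%) separated the ages, though 12-week pool 7 lay in between, at 1.10. The other 12-week pools lay at 33.9 to 50.1 and the 6-week pools at -70.8 to -23.0. In wild type at 6 weeks, pools 4 and 6 stood apart from the other 3 on the glucocorticoid-responsive and chaperone lists described below. Leaving both out ended some calls and moved some counts by more than 1.5-fold. Many of these changes, but not all, are given beside the list or gene or named among the effects of processing.

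The cells were checked against the progenitor label. Per kilobase of exon, Pdgfra had a median of 4.36 CPM at 6 weeks and 7.36 CPM at 12 weeks in R6/2, while Mog, a surface protein of finished myelin sheaths, had 1471 and 681 CPM per kilobase. Mbp, the basic protein that compacts the sheath, had 1097 and 740.03 CPM per kilobase. These transcripts of mature oligodendrocytes exceeded the receptor that names the sort in every R6/2 pool, and the cells are called sorted EGFP-positive cells here.

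Of 15239 genes tested in R6/2, 5361 (35.2%) passed edgeR's quasi-likelihood test at a Benjamini-Hochberg adjusted p below 0.05. They were 2742 genes higher at 12 weeks (18.0%) and 2619 lower (17.2%), and 1239 and 654 of these changed at least 2-fold. The age groups did not overlap for 1142 higher (7.49%) and 1254 lower genes (8.23%). Wild-type pools passed the same test for 3784 of 14912 genes (25.4%), 1825 higher (12.2%) and 1959 lower (13.1%), of which 352 and 243 changed at least 2-fold. The 2 age differences share no library. Of the R6/2 calls tested in both genotypes, 44.3% were called in the same direction in wild type, and 61.5% of the wild-type calls were called in the same direction in R6/2, while 51 genes were called in opposite directions. The interaction, the R6/2 difference between ages minus the wild-type difference, was called for 997 of 16513 genes (6.04%), 470 positive (2.85%) and 527 negative (3.19%). Counts of list members below are to be read beside these shares of all genes.

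**Figure D1:**
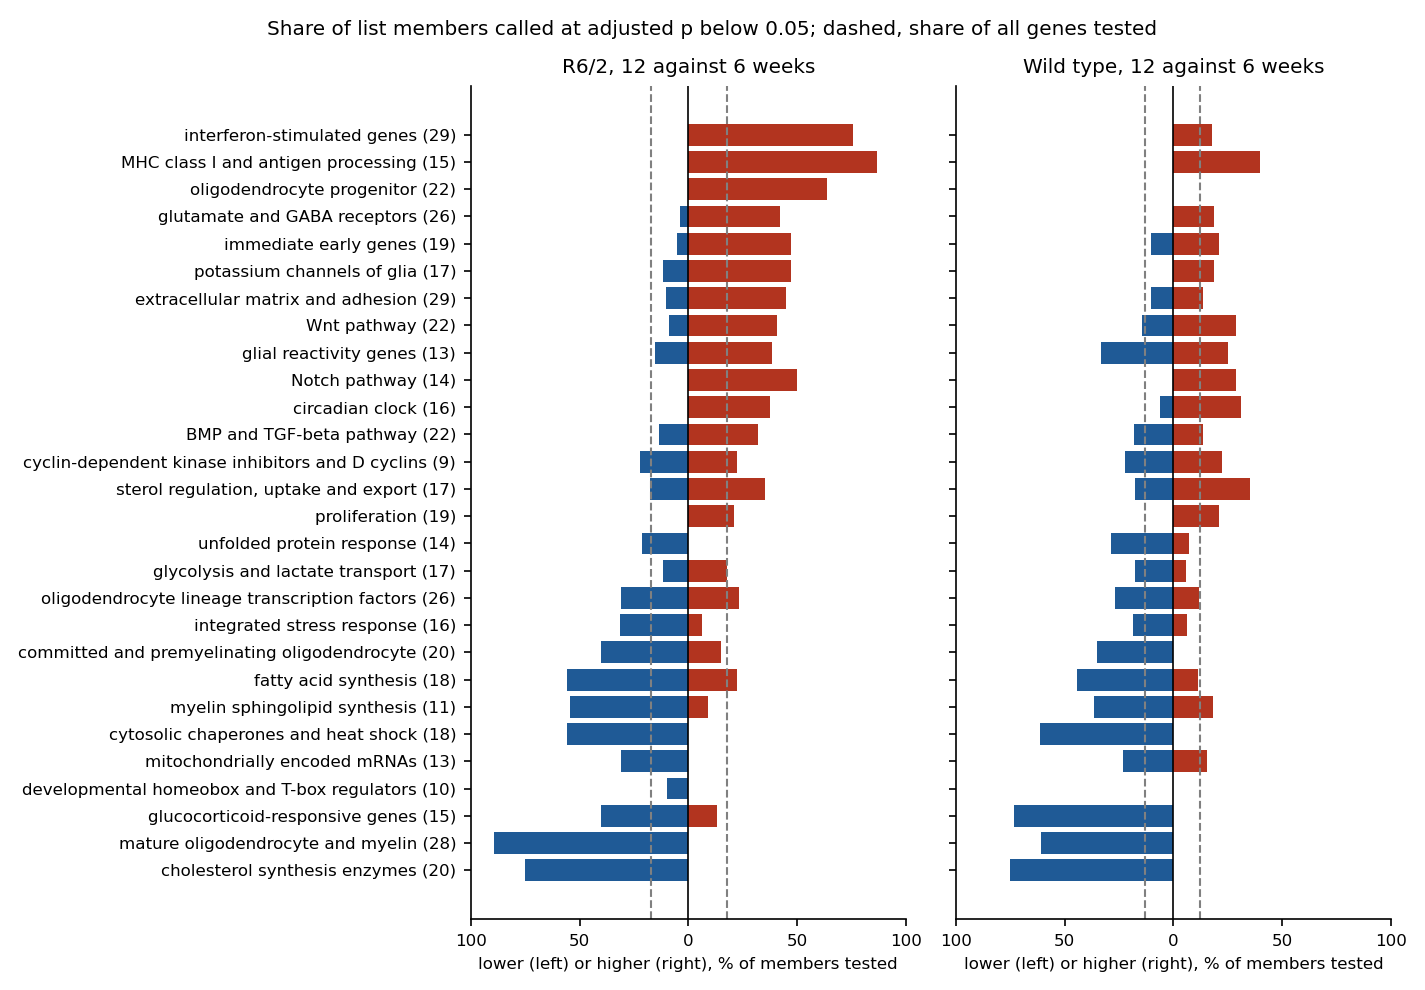
Share of the tested members of each gene list that were higher (red, to the right) or lower (blue, to the left) at 12 weeks, in R6/2 pools (left panel) and wild-type pools (right panel), in percent; the number of members tested in R6/2 stands after each list's name. Dashed lines mark the shares over all genes tested, 17.2 and 18.0% in R6/2 and 13.1 and 12.2% in wild type. Myelin genes and cholesterol enzymes lie at the bottom and interferon-stimulated genes, class I antigen presentation and progenitor genes at the top.

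Myelin transcripts were lower in the sorted cells of R6/2 mice at 12 weeks. Of 28 genes of mature oligodendrocytes and myelin, 25 fell and 0 rose, while 3 missed the threshold. The median log2 difference was -0.80, against 0.04 over all genes tested. In 22 of the 28 the age groups did not overlap, against 15.7% of all genes tested, in either direction. Together the 28 genes made up 107900 to 147138 CPM at 6 weeks and 61177 to 78011 CPM at 12 weeks, so every pool of the older group lay below every pool of the younger.

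Mal, a raft protein of myelin (chromosome 2, 127633226 to 127656695 on GRCm38), had a lowest, median and highest level of 3652, 4178 and 5089.8 CPM in the 6 pools at 6 weeks and of 1361, 1516 and 1922 CPM in the 7 pools at 12 weeks. No 12-week pool reached the lowest 6-week pool, and the log2 difference was -1.42 ± 0.11 (SE, adjusted p = 9.70e-07). Mog fell by 1.10 ± 0.09 (SE, adjusted p = 1.25e-06), from a median of 2507 to 1159.9 CPM, again without overlap. Cldn11, the claudin of the myelin tight junction, fell by 1.78 ± 0.16, from 319, 400 and 485 CPM to 85.4, 115 and 166 CPM. Ppp1r14a, an inhibitor of myosin phosphatase that oligodendrocytes express strongly, fell the most of the list, by 1.94 ± 0.16. Mbp fell less, by 0.54 ± 0.07 on the log2 scale, from a median of 9288 to 6267 CPM. Plekhb1, Anln and Nipal4 did not pass, with log2 differences of -0.09 ± 0.09, -0.07 ± 0.12 and -0.35 ± 0.14 (SE).

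Myelin genes were lower at 12 weeks in wild-type pools as well, but by less. There 17 of the 28 fell and 0 rose, with a median of -0.23. The interaction was called negative for 23 of the 28 (background 3.19%) and positive for 0. Mal differed by -0.42 ± 0.06 in wild type, with medians of 7427 and 5681 CPM, and its interaction was -1.01 ± 0.13 (adjusted p = 5.92e-05). Opalin, a glycoprotein of central myelin, showed the contrast most plainly. It fell from a median of 938 to 450.004 CPM in R6/2, a log2 difference of -1.12 ± 0.13 (adjusted p = 2.02e-05), and stood at medians of 1026 and 956 CPM in wild type, where the difference of -0.04 ± 0.08 did not pass (adjusted p = 0.789). Its interaction was -1.08 ± 0.16 (adjusted p = 0.00015).

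**Figure D2:**
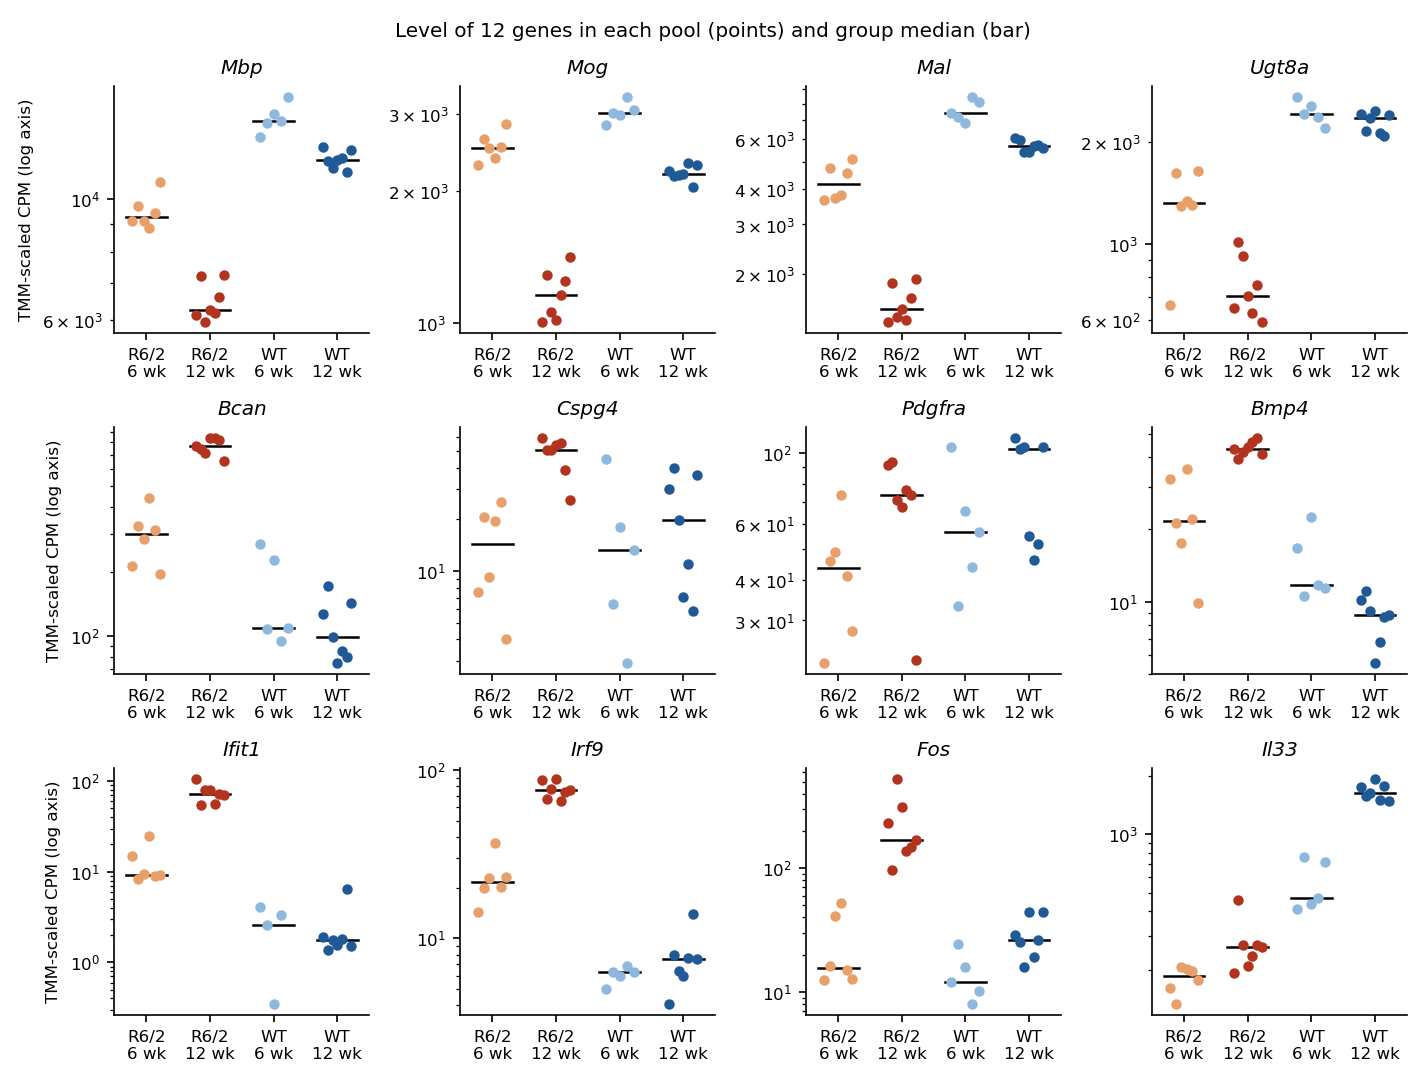
Level of 12 genes in every pool of the R6/2 line, as TMM-scaled CPM on log axes; each point is a pool and each bar the median of its group. Mbp, Mog and Mal are lower in every 12-week R6/2 pool than in any 6-week pool, Bcan, Cspg4, Bmp4, Ifit1, Irf9 and Fos are higher in every one, and Pdgfra, Ugt8a and Il33 overlap between ages in R6/2.

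Transcription factors of the lineage moved in both directions. Of 26, 6 rose and 8 fell in R6/2, with a median of -0.15, beside 18.0% higher and 17.2% lower among all genes. In wild type 3 rose and 7 fell, with a median of -0.14. Nkx6-2, a homeobox factor of myelinating cells, fell from 443, 528 and 639 CPM to 183, 217 and 255 CPM, a log2 difference of -1.27 ± 0.10 (adjusted p = 1.08e-06), and its interaction was -0.81 ± 0.13 (adjusted p = 0.000426). Sox10, which the lineage needs to myelinate, lay at 582 to 675 CPM at 6 weeks and at 359 to 524 CPM at 12 weeks, a fall of 0.37 ± 0.09 on the log2 scale, and the interaction was called (-0.48 ± 0.13, adjusted p = 0.0259). The lowest of the 12-week values belonged to pool 7, and the other 6 pools lay between 464 and 524 CPM. Olig1 and Olig2, which specify the lineage, fell by 0.59 ± 0.07 and 0.36 ± 0.07, and neither interaction passed (adjusted p = 0.341 and 0.461).

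Factors of the progenitor stage were among those that rose, but Sox factors of the list did not all move this way. Sox9 was lower, at 1.81 to 6.04 CPM at 6 weeks and 0.735 to 3.96 CPM at 12 weeks in R6/2, with overlapping ranges. Sox5, which with Sox6 holds back differentiation, rose from 0.518, 3.41 and 4.84 CPM to 9.83, 14.1 and 20.6 CPM (log2 difference 2.20 ± 0.41, adjusted p = 0.000791). Sox6 rose by 1.08 ± 0.27 and Prrx1, a homeobox factor found in progenitors, by 1.90 ± 0.44, both without overlap. Sox2, a factor of stem and progenitor cells, had medians of 10.7 and 14.97 CPM in R6/2 and of 9.84 and 6.38 CPM in wild type, so that it rose by 0.54 ± 0.17 in R6/2 and fell by 0.55 ± 0.19 in wild type. The interaction of 1.09 ± 0.25 was called (adjusted p = 0.00918). The wild-type fall of Sox2 did not pass without wild-type 6-week pools 4 and 6. Sox4, which blocks premature maturation, kept a median near 27 CPM in R6/2 (27.1 and 28.4 CPM, adjusted p = 0.212) while it dropped from 23.6 to 7.92 CPM in wild type. Its interaction was 1.64 ± 0.29 (adjusted p = 0.00124).

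Tcf7l2, the Wnt effector that the series title names and that drives premyelinating cells to differentiate, had a lowest, median and highest level of 29.8, 38.8 and 47.7 CPM at 6 weeks and of 26.7, 30.4 and 38.5 CPM at 12 weeks in R6/2. The ranges overlapped and the difference of -0.29 ± 0.14 did not pass (adjusted p = 0.119). It passed in wild type (-0.58 ± 0.16, adjusted p = 0.0149), and the interaction did not (adjusted p = 0.537). After scaling for exon length and GC share, Tcf7l2 was called lower in R6/2, by 0.60 on the log2 scale. Myrf, the master regulator of myelin genes, had medians of 493 and 486 CPM in R6/2 (adjusted p = 0.919) and of 658 and 841 CPM in wild type. Under that scaling its R6/2 difference turned from 0.02 to -0.21 and passed (adjusted p = 0.0468).

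Genes of oligodendrocyte progenitors rose in R6/2. Of 22 measured members 14 rose and 0 fell, while 8 missed the threshold. The median log2 difference was 1.23. In wild-type pools 0 of the 22 were called in either direction by edgeR (median -0.01). The interaction was positive for 7 of the 22 (background 2.85%). The summed level of the list was 815 to 1541 CPM at 6 weeks and 1770 to 2585 CPM at 12 weeks in R6/2, against 808 to 1478 and 817 to 1367 CPM in wild type.

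Bcan, which encodes the proteoglycan brevican (chromosome 3, 87987531 to 88000230), had 194, 298 and 440 CPM at 6 weeks and 659, 773 and 837 CPM at 12 weeks. All 12-week pools were above all 6-week pools, with a log2 difference of 1.39 ± 0.16 (adjusted p = 1.33e-05), whereas wild-type medians were 109 and 99.0 CPM and the interaction was 1.92 ± 0.34 (adjusted p = 0.000963). Cspg4, the NG2 proteoglycan, rose from 4.00, 14.4 and 25.4 CPM to 25.8, 50.7 and 59.4 CPM (1.75 ± 0.35, adjusted p = 0.00149). Its interaction did not pass (adjusted p = 0.302), and the R6/2 difference was not called among only the pools with Y-linked transcripts. At 12 weeks these include pool 7, which held the lowest Cspg4 level of that age, 25.8 CPM. Susd5, a sushi-domain membrane protein, had the largest rise of the list, from a median of 19.8 to 129 CPM (2.66 ± 0.31), followed by Vcan, the proteoglycan versican, from 10.1 to 52.4 CPM (2.44 ± 0.33). Ptprz1, a receptor phosphatase of progenitors, rose by 2.00 ± 0.33 and Serpine2, a protease inhibitor, by 1.32 ± 0.18, both with a called interaction.

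Pdgfra itself did not pass. Its pools ranged over 22.1 to 74.1 CPM at 6 weeks and 22.5 to 93.8 CPM at 12 weeks, with medians of 43.7 and 73.8 CPM and a log2 difference of 0.72 ± 0.30 (adjusted p = 0.0745). The lowest pool of each age was the one with the highest mitochondrial share, and without those 2 pools Pdgfra was called higher by 0.72, as it was by DESeq2. Wild-type medians of 56.7 and 103 CPM differed by 0.44 ± 0.29 (adjusted p = 0.306), and the interaction was 0.27 ± 0.44 (adjusted p = 0.8).

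**Figure D3:**
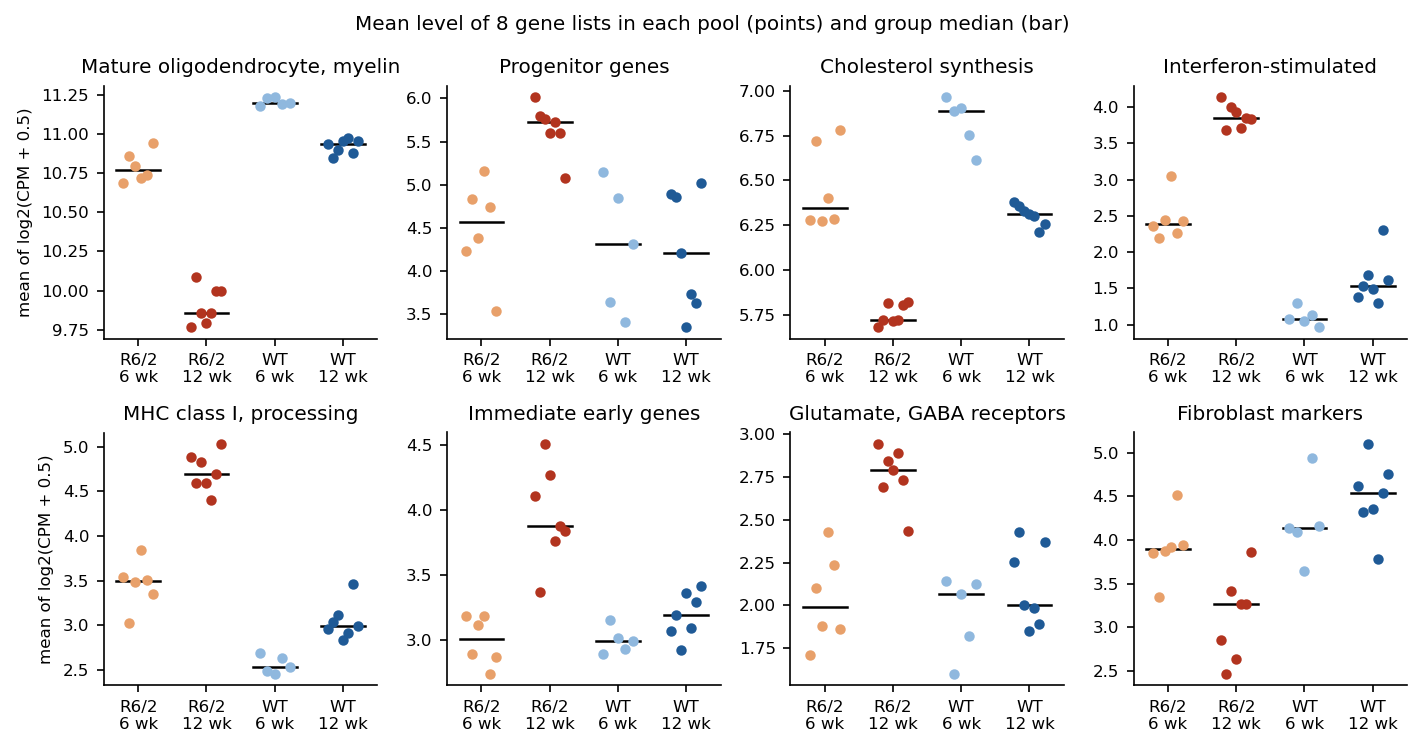
Mean over the members of 8 gene lists of log2(CPM + 0.5) in each pool; bars are group medians. In R6/2, the 12-week pools lie below the 6-week pools for myelin genes and cholesterol enzymes and above them for interferon-stimulated, class I and immediate early genes, and 1 of the progenitor values at 12 weeks lies within the 6-week range.

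Of 20 genes of committed and premyelinating cells, 3 rose and 8 fell in R6/2, with a median of -0.21. Among all genes 18.0% rose and 17.2% fell, so the share of rises was near that of all genes. In wild type 0 rose and 7 fell, beside 12.2 and 13.1% of all genes. Bmp4, a secreted factor that holds progenitors back from maturing, rose from 9.86, 21.7 and 35.6 CPM to 39.2, 43.0 and 47.9 CPM (0.91 ± 0.22, adjusted p = 0.00497), and in wild type it fell from a median of 11.7 to 8.79 CPM. Its interaction was 1.66 ± 0.32 (adjusted p = 0.00192), although the R6/2 rise of 1.02 was not called among only the pools with Y-linked transcripts. Neu4, a sialidase of the committed stage, rose by 1.27 ± 0.23 with an interaction of 1.71 ± 0.44 (adjusted p = 0.0191). Gpr17, the receptor most typical of the committed stage, ranged over 99.9 to 316 CPM and 97.8 to 349.9 CPM and did not pass (0.27 ± 0.30, adjusted p = 0.516). Rnf122, a ubiquitin ligase, fell the most among the members without overlap, from a median of 102 to 47.1 CPM.

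Enzymes of cholesterol synthesis were lower at 12 weeks in both genotypes. Of 20, 15 fell and 0 rose in R6/2 (median -0.83), and 15 fell and 0 rose in wild type (median -0.54). Cyp51, the sterol demethylase, fell most, from 103, 174 and 243 CPM to 59.6, 66.4 and 79.7 CPM, a log2 difference of -1.40 ± 0.16 (adjusted p = 1.77e-05), and Msmo1, a later enzyme on the path, fell by 1.22 ± 0.13. Hmgcs1, which makes HMG-CoA, went from 266 to 621 CPM at 6 weeks to 183 to 227 CPM at 12 weeks (-1.04 ± 0.16). The ranges did not overlap for these 3 enzymes. The interaction was called negative for 3 of the 20, Cyp51 (-0.70 ± 0.20, adjusted p = 0.0403), Ebp, the sterol isomerase (-0.60 ± 0.12, adjusted p = 0.0027), and Dhcr7, the last reductase of one branch (-0.63 ± 0.14, adjusted p = 0.00837).

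Sqle, squalene epoxidase, went from 113, 152 and 209 CPM to 69.3, 100.3 and 105 CPM and fell by 0.75 ± 0.15 in R6/2 and by 1.13 ± 0.12 in wild type. Its interaction did not pass (adjusted p = 0.348).

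Genes of sterol handling moved in both directions, 6 rises and 3 falls among 17 tested members in R6/2 and the same counts in wild type. Among all genes 18.0% rose and 17.2% fell in R6/2, so the share of falls was near that of all genes. In wild type 12.2% of all genes rose and 13.1% fell. Apoe, the lipid carrier of glia, rose from 813, 1123 and 1599 CPM to 2126, 2299.6 and 3018 CPM (1.06 ± 0.15, adjusted p = 7.60e-05), and Abca1, the exporter that loads it, from 41.9 to 66.5 CPM to 99.6 to 179 CPM (1.37 ± 0.14). Both rose in wild type too (0.64 ± 0.11 and 1.15 ± 0.14) and neither interaction passed (adjusted p = 0.212 and 0.615). Lrp1, an endocytic receptor for Apoe, rose from a median of 30.3 to 138 CPM (1.95 ± 0.20), with an interaction of 1.33 ± 0.36 (adjusted p = 0.0236).

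The last steps of myelin lipid synthesis were lower in R6/2. Of 11 sphingolipid genes 6 fell and 1 rose, beside 17.2% lower and 18.0% higher among all genes. The interaction was negative for 6 (background 3.19%), or for 3 without wild-type 6-week pools 4 and 6. Fa2h, the fatty acid hydroxylase of galactolipids, fell from 1026, 1069.9 and 1359.5 CPM to 381, 412 and 519.7 CPM (-1.42 ± 0.10, adjusted p = 4.34e-07), with an interaction of -0.98 ± 0.12 (adjusted p = 4.56e-05). Gal3st1, which sulphates galactosylceramide, fell by 0.98 ± 0.09 and Cers2, the very-long-chain ceramide synthase, by 0.66 ± 0.07. Ugt8a, which makes galactosylceramide, overlapped between ages because 6-week pool 1 lay at 663 CPM while the other 5 lay at 1294 to 1638 CPM. The 12-week pools held 592 to 1017 CPM (-0.79 ± 0.18, adjusted p = 0.00385).

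Among 18 genes of fatty acid synthesis 10 fell and 4 rose in R6/2, beside 17.2 and 18.0% of all genes. In wild type 8 fell and 2 rose, beside 13.1 and 12.2%, or 7 and 1 without wild-type 6-week pools 4 and 6. The interaction was negative for 6 and positive for 2 (background 3.19 and 2.85%), or for 4 and 1 without wild-type 6-week pools 4 and 6. Elovl6 and Acsl3, an elongase and an acyl-CoA synthetase, each fell by 1.08 (SE 0.11 and 0.13). Scd2 and Fasn, which encode abundant enzymes of the pathway, did not pass (adjusted p = 0.744 and 0.76), and Fads2, a desaturase, rose by 1.00 ± 0.18 with a positive interaction (1.03 ± 0.26, adjusted p = 0.0171).

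Interferon-stimulated genes rose in R6/2. Of 32 listed genes 29 passed the filter on low counts, and of these 22 rose and 0 fell, while 7 missed the threshold. The median log2 difference was 1.74. In 17 of the 29 the age groups did not overlap, against 15.7% of all genes tested, in either direction. Wild-type pools had 5 rises and 0 falls among 28 tested members (median 0.52), and the interaction was positive for 6 of 31. The summed level was 386 to 661 CPM at 6 weeks and 1043 to 1477 CPM at 12 weeks in R6/2, and 205 to 247 and 251 to 344 CPM in wild type.

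Type I interferon acts through a complex that contains Stat2 and Irf9 and binds a repeated GAAA element in promoters. The RefSeq promoter windows (GRCm38.p6) were searched on both strands for GAAA, any 2 bases and GAAA again, which reads TTTC, any 2 bases and TTTC on the other strand, in the 250 bases before each start site. Windows existed for 22 of the 32 listed genes, and 13 of these (59.1%) held a match, against 936 of all 27025 genes with a window (3.46%). Matches stood before 8 of 15 genes that rose and 4 of 6 tested genes that did not pass. No window of the 22 myelin or 17 progenitor genes that had one held a match, and of 12 class I genes with a window 2 (16.7%) did. The windows of 4 interferon-stimulated genes that rose, and of the class I light chain gene B2m, one of those 2, are shown in the direction of the gene with the matches in capitals.
Ifit1, chr19:34640639-34640888, plus strand: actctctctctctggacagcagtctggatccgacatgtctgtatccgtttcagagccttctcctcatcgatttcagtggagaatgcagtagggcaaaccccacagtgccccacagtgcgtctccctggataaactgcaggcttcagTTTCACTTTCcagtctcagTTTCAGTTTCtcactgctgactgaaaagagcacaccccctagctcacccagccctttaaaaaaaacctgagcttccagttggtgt
Ifit3, chr19:34583279-34583528, plus strand: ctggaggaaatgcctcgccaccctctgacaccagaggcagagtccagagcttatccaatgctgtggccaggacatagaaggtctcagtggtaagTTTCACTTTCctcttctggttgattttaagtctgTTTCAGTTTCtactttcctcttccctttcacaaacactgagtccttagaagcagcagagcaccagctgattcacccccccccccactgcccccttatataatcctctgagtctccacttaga
Rsad2, chr12:26456453-26456702, minus strand: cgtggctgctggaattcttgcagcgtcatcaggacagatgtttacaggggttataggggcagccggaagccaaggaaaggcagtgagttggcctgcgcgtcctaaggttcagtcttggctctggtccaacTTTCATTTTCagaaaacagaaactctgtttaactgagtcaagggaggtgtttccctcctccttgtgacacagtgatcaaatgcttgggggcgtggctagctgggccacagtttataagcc
Igtp, chr11:58199306-58199555, plus strand: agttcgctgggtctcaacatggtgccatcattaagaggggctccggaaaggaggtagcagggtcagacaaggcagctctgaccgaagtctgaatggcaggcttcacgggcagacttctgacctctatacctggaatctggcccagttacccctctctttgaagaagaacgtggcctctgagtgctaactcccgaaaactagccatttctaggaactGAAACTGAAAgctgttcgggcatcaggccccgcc
B2m, chr2:122147437-122147686, plus strand: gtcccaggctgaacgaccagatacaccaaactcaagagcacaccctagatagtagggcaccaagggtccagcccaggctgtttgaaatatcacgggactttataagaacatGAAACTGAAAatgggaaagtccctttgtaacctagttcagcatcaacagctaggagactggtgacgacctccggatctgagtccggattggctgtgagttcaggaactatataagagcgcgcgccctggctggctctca
Ifit1 and Ifit3 hold 2 matches each, and the other windows 1 each. A match is a feature of the letters, and no binding was measured here.

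The interferon-stimulated genes behind these windows had low levels at 6 weeks. Ifit1, which binds viral RNA, rose from 8.41, 9.31 and 24.8 CPM to 54.5, 71.6 and 105 CPM (2.55 ± 0.26, adjusted p = 7.51e-06), while its wild-type pools stayed between 0 and 6.46 CPM at both ages. The interaction was 2.37 ± 0.70 (adjusted p = 0.0432). Ifit3, of the same family, rose from a median of 16.1 to 124 CPM (2.85 ± 0.28, interaction 2.13 ± 0.53, adjusted p = 0.0144). Its near-identical copy Ifit3b rose by 2.95 ± 0.32, and estimated counts may divide shared reads between such copies. Rsad2, the antiviral protein viperin, rose from 1.44, 3.13 and 4.34 CPM to 9.07, 10.4 and 15.4 CPM. Igtp, an interferon-induced GTPase, rose by 2.22 ± 0.27 in R6/2 and by 2.06 ± 0.42 in wild type, with medians of 4.61 and 26.8 CPM against 0.752 and 2.94 CPM. Its interaction was 0.15 ± 0.48 (adjusted p = 0.908).

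Irf9, a part of the signalling complex itself, rose from 14.4, 21.5 and 36.9 CPM to 65.4, 76.1 and 88.0 CPM (1.74 ± 0.17, adjusted p = 4.91e-06; interaction 1.41 ± 0.29, adjusted p = 0.00384). Stat2 did not pass (0.25 ± 0.19, adjusted p = 0.319). Parp14, an interferon-induced ADP-ribosyltransferase, had the largest fitted rise of the list (4.15 ± 0.89), from 0 to 1.25 CPM to 4.52 to 11.2 CPM in 6 of the 7 older pools, while pool 7 held 0.303 CPM.

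Genes of class I antigen presentation rose as well. Of 15, 13 rose and 0 fell (median 1.40), against 6 rises and 0 falls in wild type (median 0.69), and the interaction was positive for 5, or for 2 without wild-type 6-week pools 4 and 6. B2m went from 31.6, 54.6 and 75.1 CPM to 75.2, 159 and 446 CPM, so that the lowest 12-week pool stood next to the highest 6-week pool (1.85 ± 0.33, adjusted p = 0.000537; interaction 1.56 ± 0.42, adjusted p = 0.0236). Tap1, a subunit of the peptide transporter, rose from a median of 2.01 to 12.3 CPM (2.60 ± 0.37) and Psmb8, a subunit of the immunoproteasome, from 1.41 to 10.1 CPM (2.81 ± 0.41). H2-D1 and H2-K1, class I heavy chains with near-identical relatives, rose by 1.58 ± 0.35 and 1.40 ± 0.28, with overlapping ranges. Psmb10 and Psme2 did not pass.

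Microglia are a usual source of class I and interferon transcripts, so their markers are given beside these genes. Of 16, edgeR called 0 in either direction in R6/2 (background 35.2%), and without the pools of highest mitochondrial share it called 1, lower. Their summed level was 120.3 to 205 CPM at 6 weeks and 89.7 to 256 CPM at 12 weeks, and none of the 16 was at 0 in every pool of a group. Endothelial markers summed to 51.0 to 119.9 CPM and 25.6 to 112 CPM, and 1 of 14, Vwf, rose. The part that these cells had in the interferon genes was not tested.

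Immediate early genes rose more often than they fell in R6/2. Of 20 listed genes 19 were tested, 9 rose and 1 fell (median 0.82), beside 18.0 and 17.2% of all genes. In wild type 4 of 19 rose and 2 fell, beside 12.2 and 13.1%, or 2 and 1 without wild-type 6-week pools 4 and 6. The interaction was positive for 7 and negative for 0 of 20 (background 2.85 and 3.19%). Fos, a subunit of AP-1 that stimulated cells switch on within minutes, had 12.5, 15.6 and 52.3 CPM at 6 weeks and 97.1, 169 and 523 CPM at 12 weeks (3.22 ± 0.47, adjusted p = 0.000117). All 12-week pools were above all 6-week pools, and the spread within each age was wide. In wild type, Fos went from a median of 12.1 to 26.3 CPM (1.05 ± 0.30, adjusted p = 0.0192; without pools 4 and 6 at 6 weeks 0.74 ± 0.32, adjusted p = 0.123), and the interaction was 2.16 ± 0.57 (adjusted p = 0.0213). Egr1, a zinc finger factor, rose from a median of 13.0 to 96.5 CPM (2.95 ± 0.55), Junb from 9.29 to 31.7 CPM (2.07 ± 0.28) and Jun from 139.7 to 221 CPM (0.79 ± 0.13), each with a called interaction. Jund, the AP-1 member that resting cells hold, fell by 1.17 ± 0.11 in R6/2 and by 0.81 ± 0.10 in wild type. Papain digestion and sorting are part of every sample here, and a difference in handling between the ages cannot be told apart from age.

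Heat shock genes were lower at 12 weeks in both genotypes. Of 18 cytosolic chaperones 10 fell and 0 rose in R6/2, beside 17.2 and 18.0% of all genes. In wild type 11 fell and 0 rose, beside 13.1 and 12.2% of all genes. The wild-type count moved with pools 4 and 6 at 6 weeks, whose mean log2(CPM + 0.5) over the list was 8.06 and 7.89 against 6.93 to 7.14 in the other 3. Without these pools 4 of the 18 fell in wild type. Cryab, a small heat shock protein abundant in oligodendrocytes, went from 1539.8, 1714 and 2404 CPM to 685, 819 and 1386 CPM (-0.996 ± 0.15). Of the 18, 1 had a called interaction, Dnajb2, a co-chaperone of the ubiquitin pathway. It fell by 0.59 ± 0.08 in R6/2, differed by -0.03 ± 0.05 in wild type (adjusted p = 0.702) and had an interaction of -0.56 ± 0.09 (adjusted p = 0.000483).

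Of 15 glucocorticoid-responsive genes 6 fell and 2 rose in R6/2, beside 17.2 and 18.0% of all genes. In wild type 11 fell and 0 rose, beside 13.1 and 12.2%. The interaction was positive for 4 and negative for 0 of the 15. Wild-type 6-week pools 4 and 6 stood apart on this list too, with a mean log2(CPM + 0.5) of 6.71 and 7.03 against 5.09 to 5.72 in the other 3. Without them 2 fell and 1 rose in wild type, and the interaction was positive for 0 and negative for 1, so the wild-type falls and the positive interactions rested on these pools. Cdkn1a, the cell cycle inhibitor p21, stood at a median of 43.6 and 41.8 CPM in R6/2 (adjusted p = 0.401) and at 44.2 and 16.4 CPM in wild type, an interaction of 2.42 ± 0.57 (adjusted p = 0.0108). Without pools 4 and 6 it was 1.42 ± 0.50 and did not pass (adjusted p = 0.106). Plin4, a lipid droplet protein, rose from 3.39, 5.84 and 7.04 CPM to 14.2, 32.5 and 58.5 CPM in R6/2 (2.65 ± 0.33; interaction 2.54 ± 0.64, adjusted p = 0.0169). In wild type, pools 4 and 6 held 21.9 and 42.2 CPM of Plin4 at 6 weeks, the other 3 held 3.32 to 7.79 CPM, and the 12-week pools held 11.6 to 28.8 CPM. Without the pair, Plin4 rose in wild type as well (1.75 ± 0.36, adjusted p = 0.00529) and its interaction did not pass (0.91 ± 0.49, adjusted p = 0.331). Of 16 tested genes of the integrated stress response 1 rose and 5 fell in R6/2. Of 14 genes of the unfolded protein response 0 rose and 3 fell. Among all genes 18.0% rose and 17.2% fell. Both lists had 0 interaction calls by edgeR. Without wild-type 6-week pools 4 and 6 the interaction was called negative for 2 of the integrated stress response. With the pools of highest mitochondrial share left out, 2 unfolded protein genes rose and 6 fell.

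Of 16 clock genes 6 rose and 0 fell in R6/2, beside 18.0 and 17.2% of all genes. In wild type 5 rose and 1 fell, beside 12.2 and 13.1%. Per3 rose from a median of 5.38 to 15.9 CPM (1.43 ± 0.21) and Hlf, an output factor of the clock, from 5.12 to 11.8 CPM (1.07 ± 0.15; interaction 0.89 ± 0.26, adjusted p = 0.0397). The time of day of the dissections is not given in the sources used here.

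Signalling pathways of progenitors changed by individual members. In the Wnt list 9 of 22 tested members rose and 2 fell in R6/2 (background 18.0 and 17.2%). In wild type 6 rose and 3 fell (background 12.2 and 13.1%). Nkd1, a feedback inhibitor that Wnt signalling induces, fell from 118, 129.8 and 147 CPM to 49.3, 57.4 and 63.0 CPM (-1.22 ± 0.08, adjusted p = 4.09e-07) and by only 0.25 ± 0.07 in wild type, an interaction of -0.97 ± 0.11 (adjusted p = 5.53e-06). Wnt7b, a ligand, rose from 4.72, 6.50 and 13.3 CPM to 19.0, 23.8 and 27.6 CPM (1.64 ± 0.24; interaction 1.56 ± 0.38, adjusted p = 0.0125). Ctnnb1, the coactivator beta-catenin, rose by 0.65 ± 0.08 in R6/2 and by 0.43 ± 0.06 in wild type, and the interaction did not pass (adjusted p = 0.224).

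Of 14 Notch pathway genes 7 rose and 0 fell in R6/2 (background 18.0 and 17.2%). In wild type 4 rose and 0 fell (background 12.2 and 13.1%), or 2 and 0 without wild-type 6-week pools 4 and 6. Notch1, a receptor that keeps progenitors from differentiating, went from 16.05, 21.05 and 23.7 CPM to 52.5, 70.4 and 78.9 CPM (1.79 ± 0.12, adjusted p = 3.97e-07; interaction 1.14 ± 0.25, adjusted p = 0.0057). Hey2, a target of the pathway, rose by 1.67 ± 0.31, and Hes1 and Hes5 did not pass (adjusted p = 0.634 and 0.397). Notch2 rose from a median of 3.36 to 20.2 CPM, but 12-week pool 7 held 1.34 CPM. In the BMP and TGF-beta list 7 of 22 rose and 3 fell in R6/2, and 3 rose and 4 fell in wild type, beside 18.0% higher and 17.2% lower among all genes in R6/2. Without wild-type 6-week pools 4 and 6, 5 rose and 3 fell in wild type. Smad7, an inhibitor of both branches, fell from a median of 95.4 to 39.4 CPM (-1.21 ± 0.12; interaction -0.67 ± 0.15, adjusted p = 0.00824), and Tgfb2, a ligand, rose by 1.85 ± 0.30.

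Genes of DNA replication and mitosis showed 4 rises and 0 falls among 19 in R6/2, all 4 in the Mcm helicase, and the same counts in wild type. The share of rises was near the 18.0% of all genes. Mcm6 rose from a median of 14.3 to 34.0 CPM (1.26 ± 0.18) and Mcm5 from 10.1 to 17.2 CPM (0.92 ± 0.15), and 0 interactions of the list passed by edgeR, or 1, Mcm6, without wild-type 6-week pools 4 and 6 (adjusted p = 0.0437). Cdkn1b, the inhibitor p27 of differentiating progenitors, rose by 1.25 ± 0.18 in R6/2 and by 1.15 ± 0.24 in wild type.

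Progenitors carry receptors and channels with which they sense neurons. Of 26 tested glutamate and GABA receptor genes 11 rose and 1 fell in R6/2 (median 0.93), beside 18.0 and 17.2% of all genes. In wild type 5 of 27 rose and 0 fell, beside 12.2 and 13.1%. Gria2, the AMPA receptor subunit that limits calcium entry, had 19.2, 33.0 and 79.0 CPM at 6 weeks and 77.4, 118 and 137 CPM at 12 weeks (1.54 ± 0.26, adjusted p = 0.000308), with ranges that just overlapped. Wild-type medians were 28.7 and 14.4 CPM (adjusted p = 0.323), and its interaction was the one positive call of the list (2.03 ± 0.44, adjusted p = 0.00622). Without wild-type 6-week pools 4 and 6 the list had 2 positive interactions. Gria4 rose in both genotypes, by 1.62 ± 0.16 and 1.29 ± 0.14. Grin3a, an NMDA receptor subunit of progenitors, rose from 3.68, 8.62 and 17.4 CPM to 22.9, 45.5 and 59.3 CPM (2.29 ± 0.33). Grm3, a metabotropic receptor, had medians of 185 and 181 CPM in R6/2 and of 337 and 516 CPM in wild type, the one negative interaction (-0.71 ± 0.17, adjusted p = 0.0107).

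Of 17 glial potassium channel genes 8 rose and 2 fell in R6/2, beside 18.0 and 17.2% of all genes. In wild type 3 of 16 rose and 0 fell, beside 12.2 and 13.1%. Kcnd2, an A-type channel of progenitors, rose from 1.22, 6.38 and 14.3 CPM to 25.6, 34.7 and 39.8 CPM (2.35 ± 0.42). Kcnj16, an inward rectifier, rose by 1.86 ± 0.22 with an interaction of 1.93 ± 0.40 (adjusted p = 0.00428). Kcnk13, a 2-pore channel, fell from 110.2, 138 and 160.1 CPM to 48.3, 58.7 and 84.2 CPM (-1.12 ± 0.14, adjusted p = 3.29e-05), whereas wild-type medians were 306 and 304 CPM (interaction -1.21 ± 0.17, adjusted p = 0.000125).

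Adhesion and matrix genes rose more often than they fell in R6/2, 13 against 3 of 29 tested, beside 18.0 and 17.2% of all genes. In wild type 4 rose and 3 fell, beside 12.2 and 13.1%. The interaction was positive for 8 and negative for 0 of 30 (background 2.85 and 3.19%). Nrcam, an adhesion molecule of axon contacts, rose from 9.73, 19.2 and 36.3 CPM to 39.6, 84.3 and 106 CPM (1.95 ± 0.30, adjusted p = 0.000177; interaction 1.64 ± 0.42, adjusted p = 0.0191). Nlgn1, a neuroligin, rose by 1.11 ± 0.16, also with a called interaction. Reln, a secreted matrix protein, rose from 0.201, 1.08 and 2.53 CPM to 7.33, 10.3 and 21.01 CPM (3.27 ± 0.45), while wild-type pools held 0 to 2.02 CPM at 6 weeks and 0 to 0.477 CPM at 12 weeks. General neuronal markers are given beside these genes, since neurons express them too. The 13 markers summed to 167 to 197 CPM at 6 weeks and 168 to 237 CPM at 12 weeks, and edgeR called 0 of the 8 tested. Their part in the rises was not tested.

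The remaining groups are read beside 35.2% called among all genes. Of 17 genes of glycolysis and lactate transport 3 rose and 2 fell, and Pfkm, the muscle form of phosphofructokinase, rose from a median of 23.8 to 44.0 CPM (0.91 ± 0.17; interaction 0.97 ± 0.23, adjusted p = 0.0117). The list had 3 positive and 1 negative interactions, and 0 of either without wild-type 6-week pools 4 and 6, where Pfkm had 0.74 ± 0.24 (adjusted p = 0.0771). Of 13 mitochondrially encoded mRNAs 4 fell and 0 rose (median -0.43), and after length and GC scaling 3 fell, 1 rose and the median was 0.21. mt-Atp8 overlaps mt-Atp6 on the same strand, so reads from the overlap cannot be told apart. Among 10 tested homeobox and T-box regulators En2 fell, by 1.00 ± 0.15. Of 9 cell cycle inhibitors and D cyclins 2 rose and 2 fell in each genotype.

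Of 13 tested genes linked to glial reactivity 5 rose and 2 fell in R6/2, beside 18.0 and 17.2% of all genes. In wild type 3 of 12 rose and 4 fell, beside 12.2 and 13.1%. The summed level of the list in R6/2 had a median of 1821 CPM at 6 weeks and 1826 CPM at 12 weeks. The interaction was positive for 4 and negative for 1 of the 13, and positive for 2 without wild-type 6-week pools 4 and 6. C4b, a complement component with a near-identical relative C4a, went from 14.1, 28.0 and 65.2 CPM to 153, 336 and 347 CPM (chromosome 17, 34728380 to 34743882; 3.12 ± 0.33, adjusted p = 8.48e-06) and rose in wild type from a median of 17.0 to 79.6 CPM (1.73 ± 0.23). The interaction was 1.38 ± 0.40 (adjusted p = 0.0401). Serpina3n, a protease inhibitor of reactive glia, rose from 5.98, 9.81 and 13.5 CPM to 45.2, 69.6 and 86.7 CPM (2.80 ± 0.21, adjusted p = 5.78e-07; interaction 2.08 ± 0.29, adjusted p = 0.000121). Socs3, a feedback inhibitor of cytokine signalling, rose by 2.46 ± 0.35 with an interaction of 1.93 ± 0.52 (adjusted p = 0.0265), which did not pass without those pools (adjusted p = 0.0933).

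Il33, an alarmin that mature oligodendrocytes make, rose less in R6/2 than in wild type. Its R6/2 levels were 133, 186 and 207 CPM at 6 weeks and 192, 263 and 457 CPM at 12 weeks, and its wild-type levels 409, 468 and 767 CPM and 1486, 1631 and 1923 CPM. The wild-type groups lay far apart and the R6/2 groups overlapped. The log2 differences were 0.60 ± 0.18 (adjusted p = 0.0166) and 1.57 ± 0.15 (adjusted p = 9.14e-06), with an interaction of -0.98 ± 0.24 (adjusted p = 0.0157). The R6/2 rise was not called with a covariate for Y-linked transcripts, with one for markers of other cells or in only the pools with Y-linked transcripts (0.44, 0.44 and 0.29).

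The largest changes were taken by size among called protein-coding genes whose age groups did not overlap and whose higher median was at least 5 CPM. Gucy2f, a guanylate cyclase best known from photoreceptors, rose most, from 0, 0.211 and 2.98 CPM to 6.31, 18.0 and 31.5 CPM (4.45 ± 0.85, adjusted p = 0.000955), and wild-type pools held 0 to 1.08 CPM. Tecta, a matrix protein of the inner ear, and AW551984 rose from at most 1.47 and 2.32 CPM to at least 3.57 and 7.18 CPM. Cand2, Slc14a1, Plce1 and Tspan18 rose by 3.13 to 3.16 on the log2 scale. Slc14a1, the urea transporter, and Plce1, a phospholipase, had called interactions (2.61 ± 0.49, adjusted p = 0.00166, and 3.85 ± 0.71, adjusted p = 0.00144).

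Among the falls, Rab7b, a GTPase of endosomes, went from 16.7, 43.2 and 60.3 CPM to 1.82, 5.35 and 7.79 CPM (-3.11 ± 0.36, adjusted p = 1.91e-05), and it fell in wild type by 1.81 ± 0.14. Tmsb10, an actin-binding peptide, fell alike in R6/2 (-3.09 ± 0.33) and in wild type (-2.93 ± 0.29), with an interaction of -0.16 ± 0.43 (adjusted p = 0.885). Nectin1, an adhesion molecule, fell by 2.12 ± 0.24 and had a called interaction (-1.52 ± 0.30, adjusted p = 0.0027), as had Slc9a3r2, a PDZ scaffold (-1.07 ± 0.16, adjusted p = 0.000254), and Foxj1, a ciliary factor (-1.35 ± 0.26, adjusted p = 0.00189). Cacna1h, Fam83d, Atp5k, Acyp1 and mt-Atp8 fell by 2.07 to 2.66 on the log2 scale, and their interactions did not pass.

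Fosb, a relative of Fos, was among the largest rises (3.46 ± 0.46; interaction 2.76 ± 0.80, adjusted p = 0.0396). Tmem178, a membrane protein, fell by 1.98 ± 0.18, with an interaction of -0.82 ± 0.25 (adjusted p = 0.0466).

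Some genes were called in opposite directions in the genotypes. Vat1l rose from 4.57, 7.08 and 12.5 CPM to 28.4, 42.1 and 52.3 CPM in R6/2 (2.54 ± 0.23) and fell from a median of 5.87 to 2.14 CPM in wild type (-1.42 ± 0.40, interaction 3.94 ± 0.46, adjusted p = 1.54e-05). Without wild-type 6-week pools 4 and 6 the wild-type fall of Vat1l did not pass (-1.13 ± 0.46, adjusted p = 0.102). Csmd1, a complement regulator, and Nptx1, a pentraxin, did not pass in wild type (adjusted p = 0.429 and 0.155), rose in R6/2 by 3.06 ± 0.43 and 1.78 ± 0.56 and had interactions of 4.01 ± 0.88 (adjusted p = 0.00626) and 3.77 ± 1.05 (adjusted p = 0.0315). In the other direction, Cbs, an enzyme of transsulphuration, fell by 0.94 ± 0.32 in R6/2 and rose by 1.12 ± 0.22 in wild type, Trpv3, a cation channel, fell by 0.98 ± 0.29 and rose by 0.97 ± 0.19, and Syt12, a synaptotagmin, fell by 1.02 ± 0.23 and rose by 0.75 ± 0.26. The wild-type rise of Syt12 did not pass without wild-type 6-week pools 4 and 6 (0.82 ± 0.30, adjusted p = 0.0764). Wnt5a, a ligand, fell by 1.06 ± 0.32 in R6/2 and did not pass in wild type (0.67 ± 0.28, interaction -1.74 ± 0.44, adjusted p = 0.0172). Crym, a thyroid hormone binding protein, rose in wild type by 1.06 ± 0.27 and differed by -1.35 ± 0.60 in R6/2 (adjusted p = 0.0935).

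**Figure D4:**
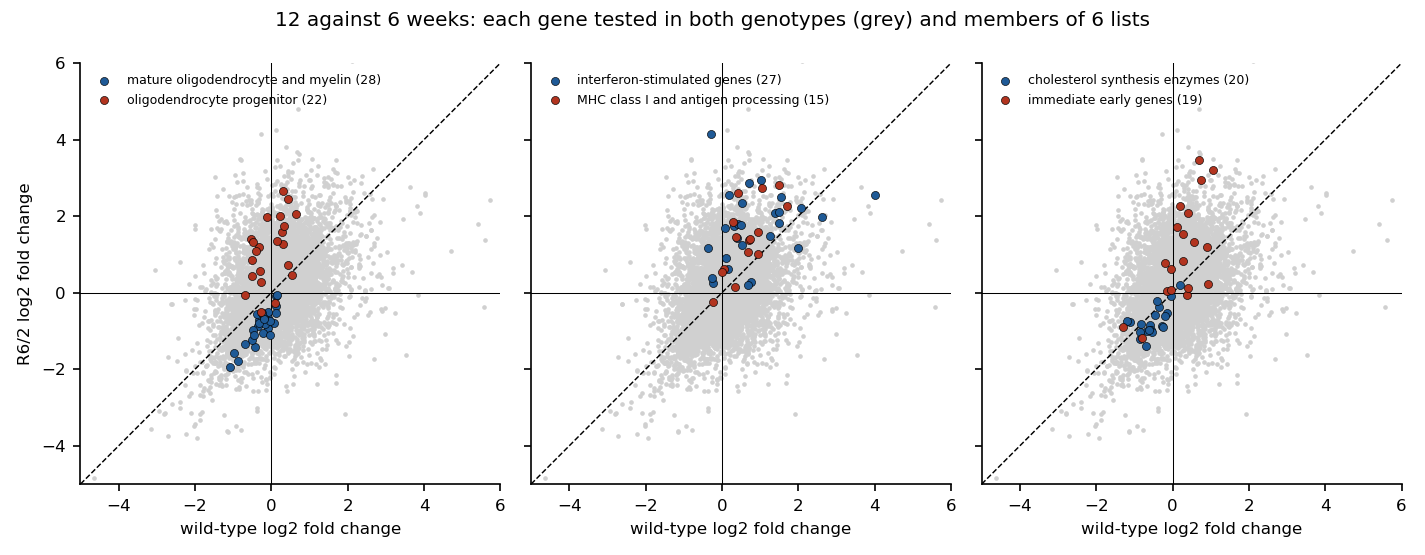
Log2 difference between 12 and 6 weeks in R6/2 (vertical) against that in wild type (horizontal) for the 14511 genes tested in both, in grey, with the members of 6 lists in colour; the dashed line marks equal differences. The 28 myelin members lie below 0 on the vertical axis, most progenitor and interferon members lie above the line, and most cholesterol enzymes are negative in both genotypes.

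Mouse Htt, which carries no expansion in this line, had 4.94, 10.6 and 12.6 CPM at 6 weeks and 8.62, 20.8 and 30.0 CPM at 12 weeks in R6/2. It rose by 1.06 ± 0.26 (adjusted p = 0.00561) and in wild type by 1.3002 ± 0.21, and the interaction did not pass (adjusted p = 0.766). The human fragment that defines R6/2 is not measured by this gene. After scaling for length and GC share Htt was not called in R6/2 (0.42). Ppargc1a, a coactivator of mitochondrial genes, ranged over 0 to 5.69 CPM and 3.63 to 6.31 CPM and did not pass (1.09 ± 0.66, adjusted p = 0.219).

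Long transcripts were higher and short ones lower at 12 weeks in both genotypes. In 5 groups of like size by exon length, from shortest to longest, the median R6/2 difference was -0.37, -0.06, 0.05, 0.15 and 0.30, and the wild-type one -0.20, -0.01, 0.03, 0.08 and 0.19. The median interaction climbed with length too, -0.20, -0.08, -0.03, 0.02 and 0.07. Of 333 processed pseudogenes tested in R6/2, 124 were lower and 4 higher. The share of values that were whole numbers also moved with age, from 70.1 to 72.6% up to 74.6 to 77.0% in R6/2 and from 70.2 to 71.8% up to 75.4 to 78.0% in wild type. A property of the libraries that moves with age in this way cannot be told apart from age. With the length and GC scaling 26 myelin genes fell and 0 rose, 14 progenitor genes rose and 2 fell, 23 interferon-stimulated genes rose and 0 fell, 13 class I genes rose and 0 fell, 16 cholesterol enzymes fell and 0 rose, and 9 immediate early genes rose and 1 fell.

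**Figure D5:**
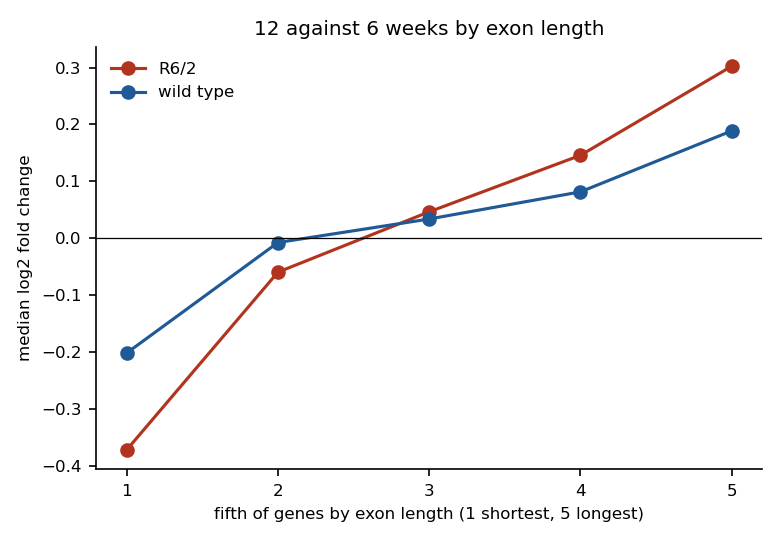
Median log2 difference between 12 and 6 weeks (vertical) in 5 groups of the tested genes by exon length (horizontal, shortest to longest), for R6/2 (red) and wild type (blue). Both lines climb from the shortest to the longest group, R6/2 from -0.37 to 0.30 and wild type from -0.20 to 0.19.

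Transcripts of other cells changed in part. Fibroblast markers fell in R6/2, 7 of 12 tested with 0 rises, while 1 of 12 rose in wild type, or 3 without wild-type 6-week pools 4 and 6. Their summed level was 243 to 614 CPM at 6 weeks and 134 to 450.4 CPM at 12 weeks. Col1a1 fell from 20.4, 30.4 and 48.1 CPM to 6.34, 8.34 and 12.4 CPM (-1.74 ± 0.21; interaction -1.47 ± 0.36, adjusted p = 0.0133). All 4 tested haemoglobin genes fell. Hba-a1 reached 229.6 CPM in 6-week pool 6 and lay at 7.11 to 30.8 CPM in the other 5 pools, against 1.38 to 11.9 CPM at 12 weeks. None of the 4 was called among only the pools with Y-linked transcripts.

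Astrocyte markers were mixed, 4 rises and 3 falls of 15 in R6/2, beside 18.0 and 17.2% of all genes. Their summed level was 665 to 899.8 CPM at 6 weeks and 1143 to 1748 CPM at 12 weeks in R6/2. In wild type it was 483 to 811 CPM and 605 to 894 CPM. Clu and Aldoc, which encode clusterin and an aldolase, rose from medians of 122 to 522 and 82.7 to 233 CPM. Gfap, the filament of reactive astrocytes, fell from 11.4 to 5.52 CPM, and Aldh1l1 and Gja1 fell by 0.86 each (SE 0.27 and 0.22). Of 3 tested ependymal markers Foxj1 and Rarres2 fell. Of 7 tested neuroblast markers 3 rose (background 18.0%), among them Dcx, from a median of 5.92 to 15.4 CPM. Of 10 tested markers of striatal projection neurons, Arpp21 and Rgs9 rose (1.68 ± 0.19 and 1.79 ± 0.50) and Adcy5 fell by 0.74 ± 0.15, while Drd1 and Gpr6 were at 0 in every R6/2 pool at 6 weeks. Their part in the other results was not tested.

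The main groups were recounted without the pools of highest mitochondrial share, 1 at each age, and in only the pools with Y-linked transcripts, both chosen after the data had been seen. Without the former, 26 myelin genes fell, 15 progenitor genes rose and 1 fell, 23 interferon-stimulated genes rose, 13 class I genes rose and 1 fell, 16 cholesterol enzymes fell, and 10 immediate early genes rose and 1 fell. In the pools with Y-linked transcripts the same groups counted 25 falls, 9 rises and 1 fall, 20 rises, 11 rises, 14 falls, and 9 rises and 1 fall.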

How the data were processed

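RNA was measured in pools of EGFP-positive striatal cells, sorted after papain digestion and a Percoll step that removes myelin debris, with an unstranded poly(A) kit and paired reads of 125 bases, per the labels' protocols. The authors deposited expected counts per gene, made with STAR 2.5.2b and RSEM 1.3.0 per the submitters' processing notes. Those notes name a human build although the identifiers are mouse, so the build is not used here. GENCODE M21 (GRCm38) gave symbols and positions.

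Expected counts were rounded and tested with edgeR 4.0.16 (R 4.3.3; filterByExpr, TMM, robust quasi-likelihood, Benjamini-Hochberg over all genes tested, threshold 0.05). Each age difference was fitted on its own 2 groups and the interaction on all 4. DESeq2 1.42.0, limma 3.58.1 voom, other scalings, filters and covariates, the replicate block and leaving out libraries were alternatives. The calling of known changes was tested on simulated data. The labels do not say whether replicate numbers pair the pools, and no pairing was used in the main tests. Correlations ran from -0.10 to 0.22 between same-numbered R6/2 pools of the 2 ages. Between same-numbered R6/2 and wild-type pools of 1 age they ran from -0.12 to 0.16. These weak correlations cannot settle whether pools were paired. P-values measure the spread between pools.

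Members and the 40 gene lists were chosen with earlier results of these data known. Named genes were the 12 largest rises and falls without overlap and with a median of 5 CPM, the 6 largest interactions each way, 27 genes fixed by name and up to 2 rises and 2 falls per list. Further list members were chosen after their values were seen. RSEM divides reads between near-identical copies (Ifit3 and Ifit3b, C4b and C4a, class I and globin genes), so their values are uncertain. Some named genes are not reported here.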

Additional observations from a re-analysis of the deposited data

Results flagged for a closer look

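Of 118 values examined over 54 named genes and 5 measures per library, 15 had a pool far from the rest of its group. Chance flags about 1 in 20 groups. In R6/2 at 6 weeks, pool 1 stood apart for the mitochondrial share (2.57%), Nectin1 (32.2 CPM), Ppp1r14a (217 CPM), Crym (5.98 CPM) and Ugt8a (663 CPM). Pool 4 stood apart for Tspan18 (4.09 CPM) and Vat1l (12.5 CPM), and pool 5 for Fam83d (53.8 CPM). At 12 weeks, pool 7 stood apart for the mitochondrial share (2.72%), Acyp1 (5.81 CPM), Lum (32.7 CPM), Pdgfra (22.5 CPM) and Sox10 (359 CPM), pool 4 for AW551984 (15.02 CPM) and pool 2 for Il33 (457 CPM).

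The R6/2 and wild-type differences themselves differed, by the interaction test, for 33 named genes. Values are the R6/2 log2 difference minus the wild-type one. Positive values were found for Gucy2f (5.31), Reln (4.07), Csmd1 (4.01), Vat1l (3.94), Plce1 (3.85), Nptx1 (3.77), Fosb (2.76), Slc14a1 (2.61), Ifit1 (2.37), Fos (2.16), Bcan (1.92), Bmp4 (1.66), Irf9 (1.41), C4b (1.38) and Jun (0.97). Negative values were found for Crym (-2.40), Cbs (-2.07), Trpv3 (-1.96), Syt12 (-1.77), Wnt5a (-1.74), Lum (-1.70), Nectin1 (-1.52), Foxj1 (-1.35), Slc9a3r2 (-1.07), Mal (-1.01), Fa2h (-0.98), Il33 (-0.98), Ppp1r14a (-0.87), Tmem178 (-0.82), Ugt8a (-0.70), Mog (-0.65), Sox10 (-0.48) and Mbp (-0.29). Gucy2f and Reln are near 0 in wild type, so the size of their values depends on the prior count.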

How the results depend on the processing

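The R6/2 count of 5361 calls fell to 2562 in only the pools with Y-linked transcripts (5 and 3 pools), and was 4605 to 6658 when each library was left out in turn. Without the pool of highest mitochondrial share at each age it was 7229. The wild-type count of 3784 was 2311 with all 8 groups in 1 fit and 3176 to 3673 when libraries were left out. The interaction count of 997 was 434 with all 8 groups in 1 fit, 649 in only the pools with Y-linked transcripts, and 729 to 1784 when libraries were left out. The highest of these counts, 1784, came without R6/2 12-week pool 7. Without wild-type 6-week pools 4 and 6, a choice made after seeing the data, the wild-type and interaction counts were 2973 and 833. Interactions that then no longer passed were those of Gucy2f, Fosb, Egr1, Crym, Tmem178, Sox10, Ugt8a, Gal3st1, Cyp51, Acsl3, Fads2, Hlf, Wnt7b, Pfkm, Adcy5, Aldoc, B2m, Socs3, Cdkn1a and Plin4, with adjusted p from 0.0522 for B2m to 0.331 for Plin4. Of these, Plin4 and Cdkn1a moved by more than 1.5-fold, and none changed sign. Wild-type changes of Fos, Vat1l, Notch1, Serpina3n, Myrf, Syt12, Sox2, Scd2 and Cers2 no longer passed either. With the replicate number as a block, though the labels name no pairing, the counts were 6502, 2397 and 584. Of 6 R6/2 pools, 2 correlated best with their own number. With length and GC scaling the R6/2 calls were 2387 higher and 2921 lower in place of 2742 and 2619, and the Myrf difference in R6/2 turned to -0.21. The cause of these shifts was not tested, and the fits that left out libraries also held fewer pools. The other alternatives for the R6/2 count, from 4749 with a Y-linked covariate to 6143 by DESeq2, stayed within 1.5 times of it. Low genes limit the precision: many rises start below 5 CPM.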
